A study of Rattus norvegicus with 16 samples.

Results

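The genes described here encode 7 subunits of the GABA-A receptor, the chloride channel that GABA opens: the alpha subunits Gabra2, Gabra3, Gabra4 and Gabra5, the beta subunits Gabrb1 and Gabrb2, and the delta subunit Gabrd. They were found by symbol among the 28168 loci of an RNA sequencing table of rat frontal cortex, and each symbol stood for 1 locus. All 7 passed the filter of a mean of at least 1 FPKM (sequenced fragments of a gene, divided by its transcript length and by the depth of the library), under which 14824 loci were tested. Another 12 subunits of the family were read as a comparison list.

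The 16 libraries were made from male Sprague-Dawley rats, frontal cortex, with 4 libraries in each of 4 groups. Rats were 11 weeks old at the start and were fed for 7 weeks, on chow (the chow group) or on a high fat diet (the other 3 groups). The HF group had the diet and no injections. The HF_PBS group was given the diet and PBS, the vehicle, into the abdomen for 10 days, and the HF_5AzaD group the diet and 5-AzaD in PBS for 10 days. 5-AzaD, or 5-aza-2′-deoxycytidine, is an inhibitor of DNA methyltransferases, the enzymes that methylate cytosine. No group received injections on chow. Sample titles use the letters HFD for the PBS rats where the design text uses them for the diet alone. Groups follow the stated treatment, and if those 2 groups were exchanged, the values of HF and HF_PBS would change places in every comparison below. Libraries are called by their group and the number in their title. No label says that libraries of a group came from separate rats, so p-values measure the spread between libraries, which may be technical.

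GABA-A receptors are built from several subunits around a central chloride pore, most often alpha and beta subunits with a gamma or a delta subunit. Receptors with alpha-2 or alpha-3 are known mainly from synapses, where they carry fast inhibition. Alpha-4 with delta, and alpha-5, are known mainly from outside synapses, where they carry a steady tonic inhibition. Alpha subunits also set how a receptor responds to benzodiazepines, which alpha-4 receptors do not bind in the classical way.

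Some libraries stood apart, and they touch most results below. Relative depth, read from the steps between the lowest values with chow 2 set to 100%, was 38.7% to 100% in chow, 30.1% to 36.6% in HF, 32.5% to 42.7% in HF_PBS and 34.6% to 44.9% in HF_5AzaD; absolute depth is unknown. All 14 excitatory cortical neuron markers were above 0 in every library. Their summed level was 4249 to 4870 FPKM in chow and 2538 to 5202 in HF. It was 1404 to 4419 in HF_PBS and 2880 to 5319 in HF_5AzaD, with the lowest value in HF_PBS 3. Most of the chow sum was Nrgn, Camk2a and Slc17a7, at means of 2228, 1569 and 646 FPKM. In HF_PBS against chow 6 of the 14 markers had log2 differences above 0, and the list median was -0.49. The 13 myelin markers summed to 13053 FPKM in HF_PBS 3 and 13991 in HF_PBS 4, against 2423 to 7384 in the other libraries. The 16 striatum markers found of 17 listed, with Isl1 listed at 0 in some libraries, summed to 1504 FPKM in HF 8 and to 810, 896 and 1096 in HF_PBS 2, 3 and 4, against 238 to 431 elsewhere. The 20 interneuron markers found of 21 listed summed to 1318 to 1403 FPKM in chow and 881 to 2182 in the other groups, with Npy at 0 in at least 1 library of each high fat group. In bulk tissue, fewer cells of a type and less RNA per cell cannot be told apart.

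Because 5-AzaD acts on methylation at CG dinucleotides, the promoters of the members were read for them, using the 250 bases before the transcription start in the RefSeq table for GRCr8. Of the 7 members 6 had an entry; Gabra2 had none. Gabra4 (chr14:36944497-36944746, plus strand) held 33 CG dinucleotides, Gabra5 (chr1:117516607-117516856, minus strand) 37 and Gabrd (chr5:171252710-171252959, minus strand) 35. Only 3.60%, 1.93% and 2.58% of the 33469 promoters of that table held as many, and the median was 5. Gabrb1 and Gabrb2 held 8 each, and Gabra3 (chrX:155543871-155544120, minus strand) held none. The 3 sequences dense in CG and the one without any are shown 5′ to 3′, with each CG in capitals, to show the range among the members. No relation between CG content and the values below was tested, and methylation itself was not analysed here.
Gabra4: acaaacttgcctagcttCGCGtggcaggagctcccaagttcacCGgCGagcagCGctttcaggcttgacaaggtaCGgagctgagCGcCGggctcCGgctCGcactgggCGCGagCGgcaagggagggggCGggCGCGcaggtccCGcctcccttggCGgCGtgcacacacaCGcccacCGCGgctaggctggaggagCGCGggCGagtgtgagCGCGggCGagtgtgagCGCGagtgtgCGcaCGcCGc
Gabrd: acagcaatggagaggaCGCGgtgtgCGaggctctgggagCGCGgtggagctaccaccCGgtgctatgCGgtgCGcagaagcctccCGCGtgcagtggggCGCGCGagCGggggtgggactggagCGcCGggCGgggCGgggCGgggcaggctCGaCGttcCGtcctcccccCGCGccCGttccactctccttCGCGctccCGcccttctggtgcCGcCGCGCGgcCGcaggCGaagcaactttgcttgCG
Gabra5: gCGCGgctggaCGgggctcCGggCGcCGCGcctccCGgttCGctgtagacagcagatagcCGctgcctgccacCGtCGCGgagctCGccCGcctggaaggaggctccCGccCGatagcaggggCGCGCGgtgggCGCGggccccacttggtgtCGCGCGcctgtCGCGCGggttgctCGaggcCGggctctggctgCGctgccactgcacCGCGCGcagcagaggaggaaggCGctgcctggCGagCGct
Gabra3: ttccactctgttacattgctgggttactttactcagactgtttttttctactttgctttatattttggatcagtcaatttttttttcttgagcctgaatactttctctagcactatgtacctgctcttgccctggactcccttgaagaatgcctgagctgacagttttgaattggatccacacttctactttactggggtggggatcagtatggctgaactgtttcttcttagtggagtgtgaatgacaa

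The GC box GGGCGG, searched on both strands and partly made of a CG itself, occurred once in the Gabra4 window, once in that of Gabra5 and 4 times in that of Gabrd. It was in none of the windows of Gabra3, Gabrb1 and Gabrb2, and 30.5% of all promoters of that length held it. Neither the cyclic AMP response element TGACGTCA, held by 1.59% of promoters, nor the EGR site GCGTGGGCG, held by 0.478%, was in any of the 6 windows. These are matches of letters in a short window of another build than the rn5 named for the expression table.

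In chow cortex the members were expressed at different levels. Gabrd was highest at 74.6 ± 16.2 FPKM (SD, n = 4), followed by Gabrb2 at 49.5 ± 4.57, Gabra4 at 38.1 ± 2.13, Gabra2 at 31.3 ± 1.83, Gabra3 at 28.4 ± 2.04, Gabra5 at 19.4 ± 6.60 and Gabrb1 at 6.68 ± 1.81. FPKM is scaled to length, so these levels compare genes. Neighbours in this order whose chow values overlapped were Gabrd and Gabrb2, Gabra2 and Gabra3, and Gabra3 and Gabra5. In HF, HF_PBS and HF_5AzaD Gabrd still had the highest mean and Gabrb1 the lowest. All other neighbours in the order overlapped in those 3 groups, and only Gabrb1 lay wholly below the rest. Gabra4 came after Gabrd and Gabrb2 in chow. In HF, HF_PBS and HF_5AzaD its mean was the lowest of the alpha members, with values that overlapped the next.

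**Figure D1:**
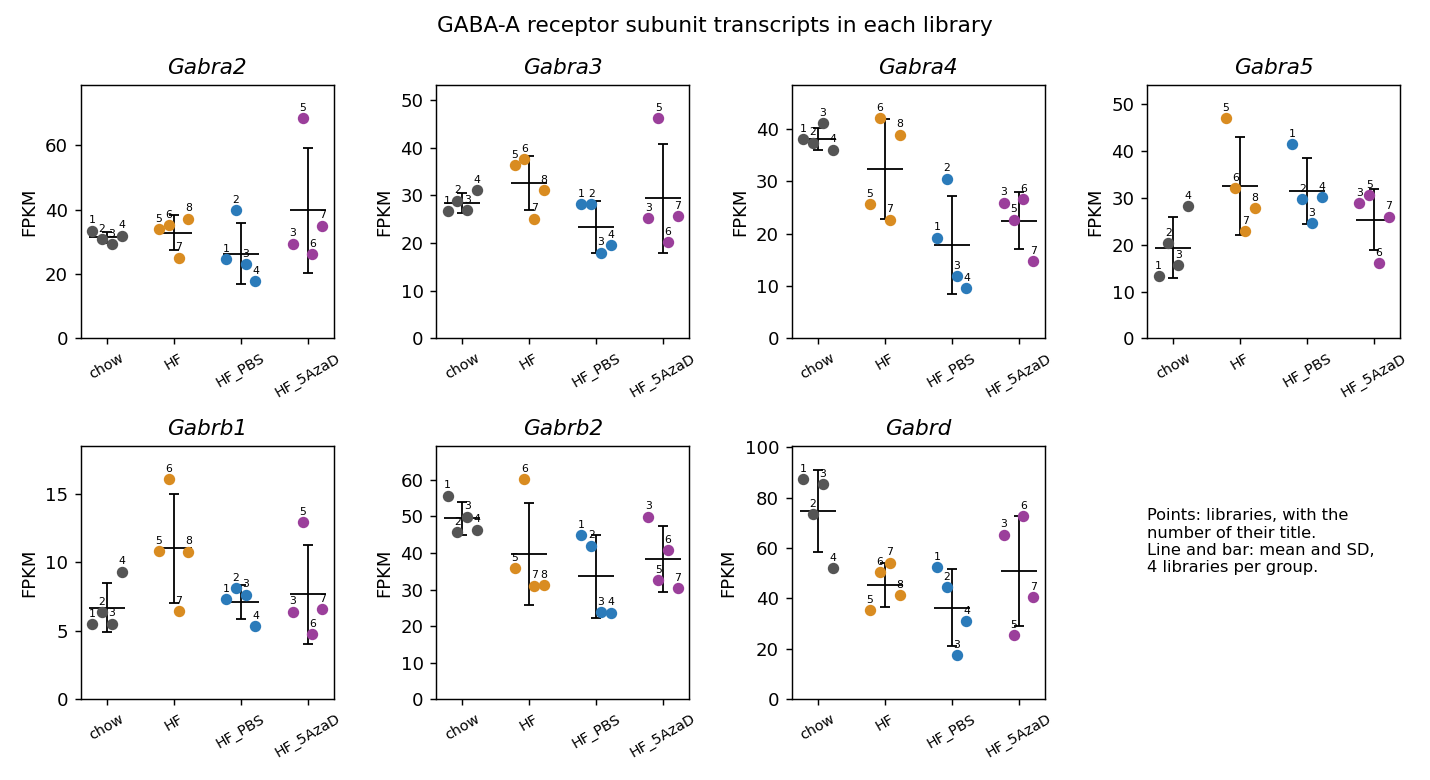
FPKM (vertical axis, from 0) of each of the 7 subunits in the 16 libraries, by group, each point 1 library with the number of its title and the line and bar the mean and SD of 4 libraries. Gabra4 lies at 36.0 to 41.1 in chow and at 9.63 to 30.5 in HF_PBS, and Gabra2 reaches 68.5 in HF_5AzaD 5.

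Gabra4 showed the clearest difference between groups. It was at 38.0, 37.4, 41.1 and 36.0 FPKM in chow 1 to 4, at 25.7, 42.1, 22.7 and 38.9 in HF 5 to 8, and at 19.2, 30.5, 11.96 and 9.63 in HF_PBS 1 to 4. In HF_5AzaD 3, 5, 6 and 7 it was at 25.9, 22.7, 26.6 and 14.8. Every library of both injected groups lay below every chow library, while HF spread over both ranges. Gabra4 fell in HF_PBS against chow, from a mean of 38.1 to 17.8 FPKM, with a log2 difference of -1.21 (SE 0.301, 95% interval -1.85 to -0.57, adjusted p = 0.0110 in limma). It also fell in HF_PBS against HF, from 32.4 to 17.8, by -0.93 (SE 0.301, adjusted p = 0.0376). In HF_5AzaD against chow, 22.5 and 38.1, the difference of -0.78 did not pass the test over all 4 groups (adjusted p = 0.0829), although the groups do not overlap. It passed with these 2 groups fitted alone (adjusted p = 0.0235), and the range over all alternatives was 0.0235 to 0.250.

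The lowest Gabra4 values, in HF_PBS 3 and 4, were in the 2 libraries with the highest myelin sums. Without those libraries and HF 8, the HF_PBS mean rested on HF_PBS 1 and 2, both still below every chow library, and the log2 difference from chow was -0.64 (adjusted p = 0.194). The call against chow was kept under the other 16 alternatives, with adjusted p from 0.00281. The call against HF was also lost without HF 6 (adjusted p = 0.123), without HF 8 (0.0901), without HF_PBS 3 (0.0995) or without HF_PBS 4 (0.131), and the log2 difference was -0.26 (0.644) without HF 8, HF_PBS 3 and HF_PBS 4 together. It was lost too with the 2 groups alone (0.115) and with no filter (0.0587). The part of myelin, striatal or neuronal content in these differences was not tested.

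Gabrd encodes the delta subunit, the usual partner of alpha-4 in forebrain receptors outside synapses. Its level was 87.5, 73.5, 85.2 and 52.1 FPKM in chow, 35.2, 50.4, 54.1 and 41.2 in HF, and 52.2, 44.4, 17.4 and 31.0 in HF_PBS. In HF_5AzaD it was 65.2, 25.5, 72.5 and 40.6. Chow 4 was far below the other chow libraries and touched the range of each high fat group. Gabrd fell in HF_PBS against chow, from 74.6 to 36.3, a log2 difference of -1.11 (SE 0.346, interval -1.85 to -0.38, adjusted p = 0.0280 in limma). HF_PBS 3, the lowest, also had the lowest excitatory neuron sum. The call was lost without chow 1 (adjusted p = 0.0678), chow 2 (0.0578), chow 3 (0.0704), HF_PBS 3 (0.0852) or HF_PBS 4 (0.0748), and without HF 8, HF_PBS 3 and HF_PBS 4 together the difference was -0.60 (0.351). For HF against chow the estimate was -0.71, with an interval of -1.44 to 0.03 and an adjusted p of 0.716.

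**Figure D2:**
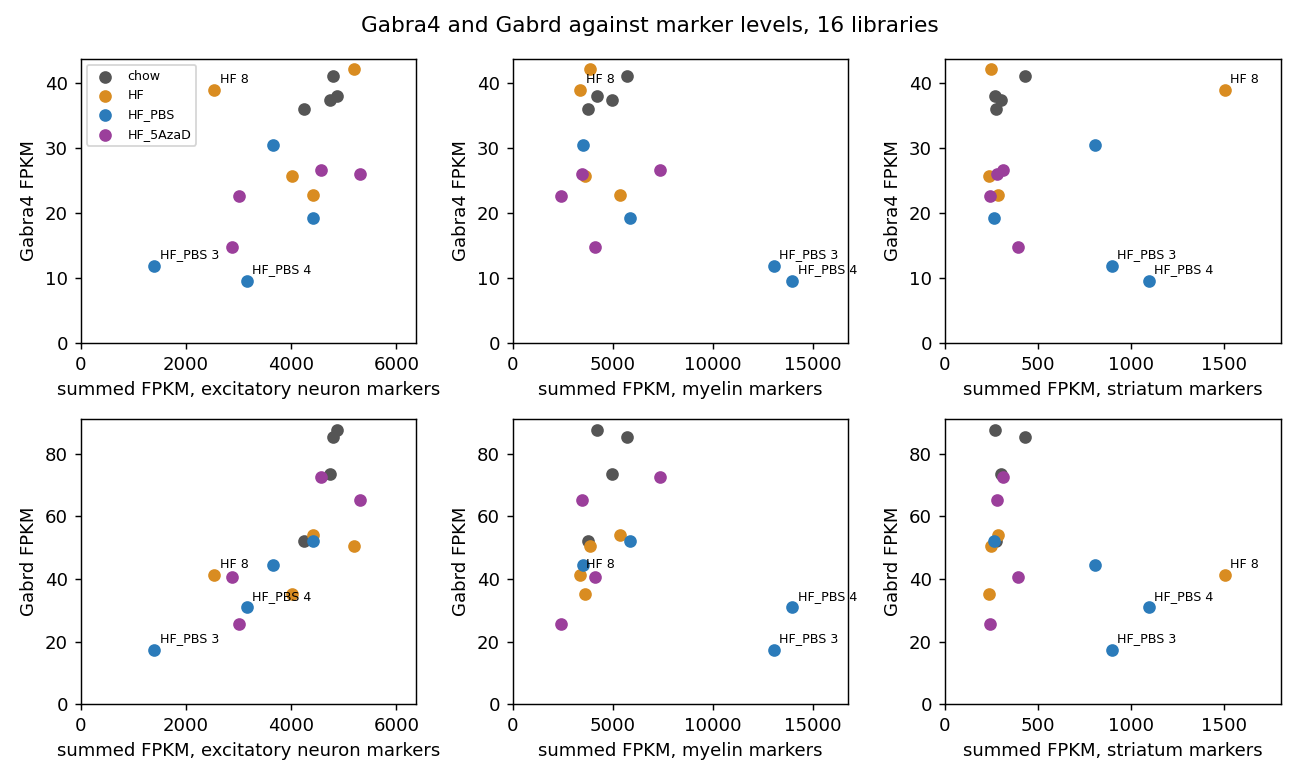
Gabra4 (top) and Gabrd (bottom) FPKM against the summed FPKM of excitatory neuron, myelin and striatum markers, one point per library, coloured by group. HF_PBS 3 and 4 lie far to the right for myelin, at 13053 and 13991, and low for both genes, while HF 8 has 1504 FPKM of striatum markers and a Gabra4 level of 38.9.

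Gabra5, the alpha subunit known for tonic inhibition in hippocampus and cortex, had the opposite sign of estimate to Gabra4 and Gabrd in all 3 comparisons with chow. It was at 13.2, 20.4, 15.7 and 28.3 FPKM in chow, 47.1, 32.2, 22.9 and 27.9 in HF, and 41.5, 29.8, 24.6 and 30.2 in HF_PBS. In HF_5AzaD it was at 28.9, 30.6, 16.01 and 26.0. Chow 4, the lowest chow library for Gabrd, was the highest for Gabra5, and it alone overlapped the HF and HF_PBS ranges. The log2 difference was 0.74 in HF against chow (interval 0.17 to 1.31, unadjusted p = 0.0148, adjusted 0.682 in limma) and 0.72 in HF_PBS against chow (interval 0.15 to 1.29, adjusted p = 0.0573). The second passed without chow 4 (0.91, adjusted p = 0.0330), with median scaling (0.0421) and with quantile normalization (0.0456), and its adjusted p ranged from 0.0330 to 0.157 over the alternatives. The hippocampus markers found, 7 of 8 with several at 0, summed to 30.7 to 49.2 FPKM in chow, 43.0 to 132 in HF, 37.5 to 85.6 in HF_PBS and 36.8 to 161 in HF_5AzaD. Most of the sum was Wfs1, at a mean of 34.0 FPKM in chow, 75.2 in HF, 48.0 in HF_PBS and 79.7 in HF_5AzaD. In HF_PBS 1 to 4 the sums were 37.5, 85.6, 55.3 and 37.7. The part of these markers in the Gabra5 values was not tested.

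Gabra2 and Gabra3 encode the synaptic alpha subunits of many forebrain neurons. Gabra2 was at 33.5, 30.7, 29.2 and 32.0 FPKM in chow, 33.9, 35.3, 25.1 and 37.2 in HF, 24.7, 39.9, 23.0 and 17.8 in HF_PBS, and 29.4, 68.5, 26.2 and 35.0 in HF_5AzaD. Chow was tight and the injected groups wide: the SD was 5.84% of the mean in chow and 49.0% in HF_5AzaD, where library 5 was the highest. The log2 difference of HF_5AzaD from HF_PBS was 0.54 (interval -0.03 to 1.11, adjusted p = 0.691), and it ranged from 0.23 to 0.76 over the alternatives. In HF_5AzaD against chow it was 0.23 with all libraries and -0.06 without HF_5AzaD 5.

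Gabra3 was at 26.8, 28.9, 26.9 and 31.1 FPKM in chow, 36.3, 37.6, 25.1 and 31.1 in HF, 28.1, 28.1, 18.0 and 19.6 in HF_PBS, and 25.3, 46.2, 20.2 and 25.7 in HF_5AzaD. HF_5AzaD 5 was again the highest library and HF_PBS 3 and 4 the lowest. No comparison passed the test, and the nearest was HF_PBS against HF (-0.48, interval -0.94 to -0.01, adjusted p = 0.125). In HF_5AzaD against chow the estimate was -0.02, with an interval of -0.49 to 0.45.

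Among the beta subunits, which form part of the GABA binding site, Gabrb1 was the least abundant member and Gabrb2 the second most abundant in chow. Gabrb1 was at 5.50, 6.39, 5.52 and 9.32 FPKM in chow, 10.8, 16.1, 6.41 and 10.8 in HF, 7.34, 8.12, 7.65 and 5.34 in HF_PBS, and 6.40, 12.9, 4.77 and 6.57 in HF_5AzaD. HF held 3 libraries above every chow library and 1 inside the chow range, and the estimate against chow was 0.65 (interval 0.03 to 1.26, unadjusted p = 0.0400, adjusted 0.696). Gabrb1 in HF_PBS differed from chow by 0.10 (interval -0.51 to 0.71).

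Gabrb2 was at 55.7, 45.7, 50.0 and 46.4 FPKM in chow, 36.0, 60.3, 31.1 and 31.2 in HF, 44.8, 42.0, 23.8 and 23.7 in HF_PBS, and 50.0, 32.5, 40.8 and 30.3 in HF_5AzaD. All HF_PBS libraries lay below all chow libraries, and HF 6 lay far above the rest of HF. The log2 difference of HF_PBS from chow was -0.61 (interval -1.14 to -0.08, adjusted p = 0.0752). It passed without HF_PBS 1 (-0.77, adjusted p = 0.0341) or HF_PBS 2 (-0.74, 0.0459), and was -0.18 without HF 8, HF_PBS 3 and HF_PBS 4 together.

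**Figure D3:**
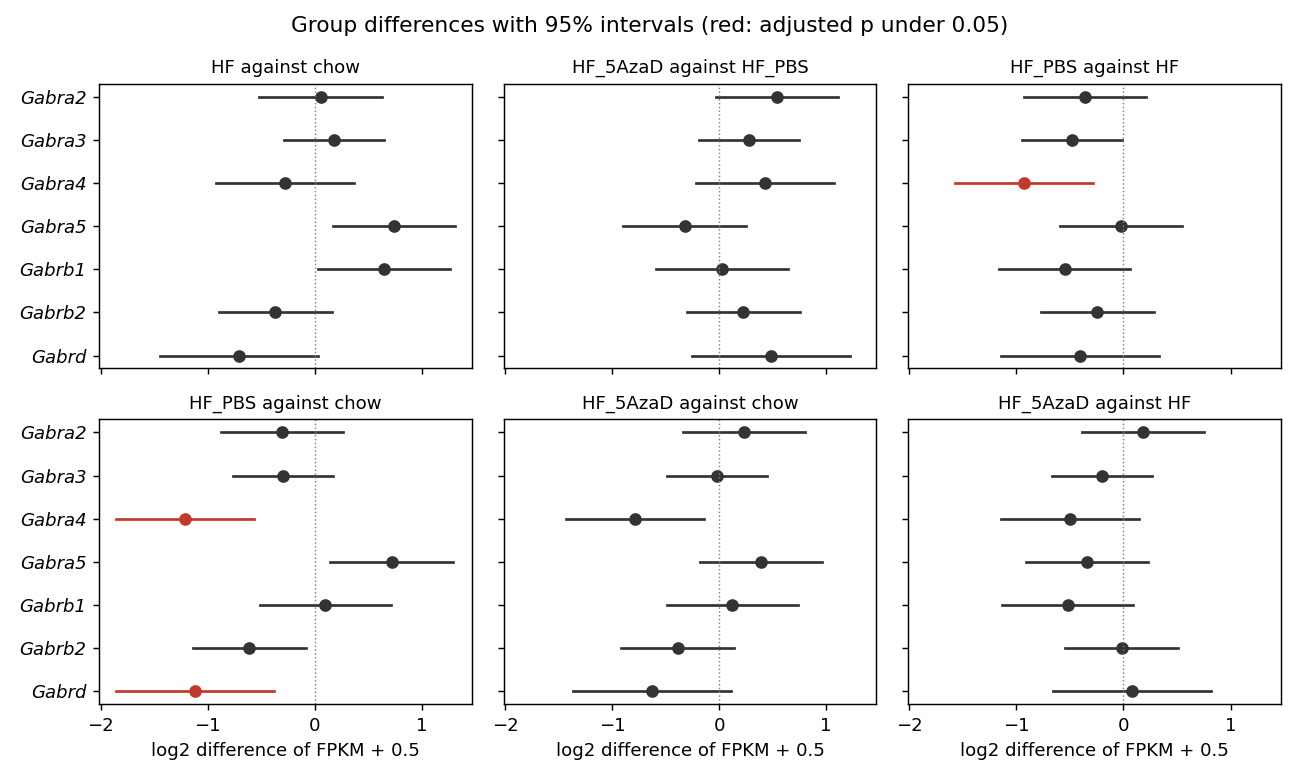
Log2 differences of FPKM + 0.5 (horizontal axis) with 95% intervals for the 7 subunits in the 6 comparisons, in red where the adjusted p is under 0.05. Red marks Gabra4 and Gabrd in HF_PBS against chow and Gabra4 in HF_PBS against HF, and no interval is red in the other 4 comparisons.

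Comparisons that share a group share its libraries, so their values are given side by side. The diet alone, HF against chow, gave 0 called members, and limma called 0% of all loci. Unadjusted, 2 of 7 members were under 0.05 (Gabra5 and Gabrb1), against 6.88% of loci, and 0 of 7 had groups that do not overlap, against 6.95% of loci. The member median of the log2 differences was 0.05, beside -0.01 for all loci.

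For the vehicle on the high fat diet, HF_PBS against HF, 1 of 7 members was called, Gabra4, which was lower; 23.9% of loci were called, 13.2% as lower. All 7 estimates were below 0, with a median of -0.41 beside 0.01 for all loci, and Gabra5 was at -0.02 and turned positive under median scaling. Without HF 8, HF_PBS 3 and HF_PBS 4 together, 4 of the 7 estimates were above 0, at 0.013 for Gabra2, 0.11 for Gabra5, 0.090 for Gabrb2 and 0.072 for Gabrd. No member had groups that do not overlap, against 21.2% of loci. In HF_PBS against chow, 2 of 7 were called, both lower, beside 28.2% of loci called and 15.7% called lower. Gabra4 and Gabrb2 were the 2 of 7 whose HF_PBS libraries all lay below chow, as 19.1% of loci did. Without HF 8, HF_PBS 3 and HF_PBS 4 together, which left 2 HF_PBS libraries, 3 loci were called against chow and 7 against HF.

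The inhibitor on top of its vehicle, HF_5AzaD against HF_PBS, gave 0 called members in limma, with 0 of 7 at an unadjusted p under 0.05 (7.42% of loci), and 0% of loci were called. The estimates were above 0 for 6 of 7 members, and 0 of 7 had groups that do not overlap, against 2.4% of loci. Their median was 0.28 with all libraries, beside 0.01 for all loci. Without HF 8, HF_PBS 3 and HF_PBS 4 together the estimates of Gabra3, Gabra4, Gabrb1, Gabrb2 and Gabrd were below 0, from -0.01 for Gabra3 to -0.20 for Gabrb2. Intervals were wide: for Gabrd 0.49 had a range of -0.25 to 1.22, and for Gabra4 0.43 had a range of -0.21 to 1.07.

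HF_5AzaD against chow called 16.3% of loci and 0 members in limma, with 1 member, Gabra4, at an unadjusted p under 0.05 (35.6% of loci). Gabra4 was also the 1 of 7 wholly below chow, as were 14.8% of loci. HF_5AzaD against HF called 14.2% of loci and 0 of 7 members, with 0 at an unadjusted p under 0.05 (32.5% of loci). Groups overlapped for all 7 members, while 17.7% of loci had groups that do not overlap. Gabrb1 came nearest there, at 7.67 and 11.0 FPKM (-0.52, adjusted p = 0.222).

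The balance between the alpha members was taken as the share of each in the summed FPKM of Gabra2, Gabra3, Gabra4 and Gabra5, which does not depend on the scale of a library. Gabra4 took 34.1%, 31.9%, 36.4% and 28.3% in chow 1 to 4, 18.0%, 28.6%, 23.7% and 28.8% in HF 5 to 8, and 17.0%, 23.8%, 15.4% and 12.5% in HF_PBS 1 to 4. HF_5AzaD 3, 5, 6 and 7 had Gabra4 shares of 23.7%, 13.5%, 29.9% and 14.6%. Its share was below every chow library in all 4 HF_PBS libraries, while HF and HF_5AzaD overlapped chow. Gabra5 took 11.9%, 17.3%, 13.9% and 22.2% in chow, 32.9%, 21.9%, 23.9% and 20.7% in HF, and 36.5%, 23.2%, 31.7% and 39.1% in HF_PBS. In HF_PBS its share was above every chow library, and in HF and HF_5AzaD (17.97% to 26.4%) it overlapped chow through chow 4. Gabra3 kept the most even share, at 24.2% ± 0.377 in chow, 25.0% ± 1.40 in HF, 23.8% ± 1.55 in HF_PBS and 24.7% ± 2.23 in HF_5AzaD. Gabra2 ran from 21.7% to 31.1% over chow, HF and HF_PBS and reached 40.8% in HF_5AzaD 5. These shares were chosen as a description after group values were known, and no test was made of them.

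Of the summed FPKM of the 2 beta members, Gabrb1 made up 8.99% to 16.7% in chow, 17.1% to 25.7% in HF, 14.1% to 24.3% in HF_PBS and 10.5% to 28.5% in HF_5AzaD, and Gabrb2 the rest. The HF libraries all lay above chow, and the other groups overlapped it.

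**Figure D4:**
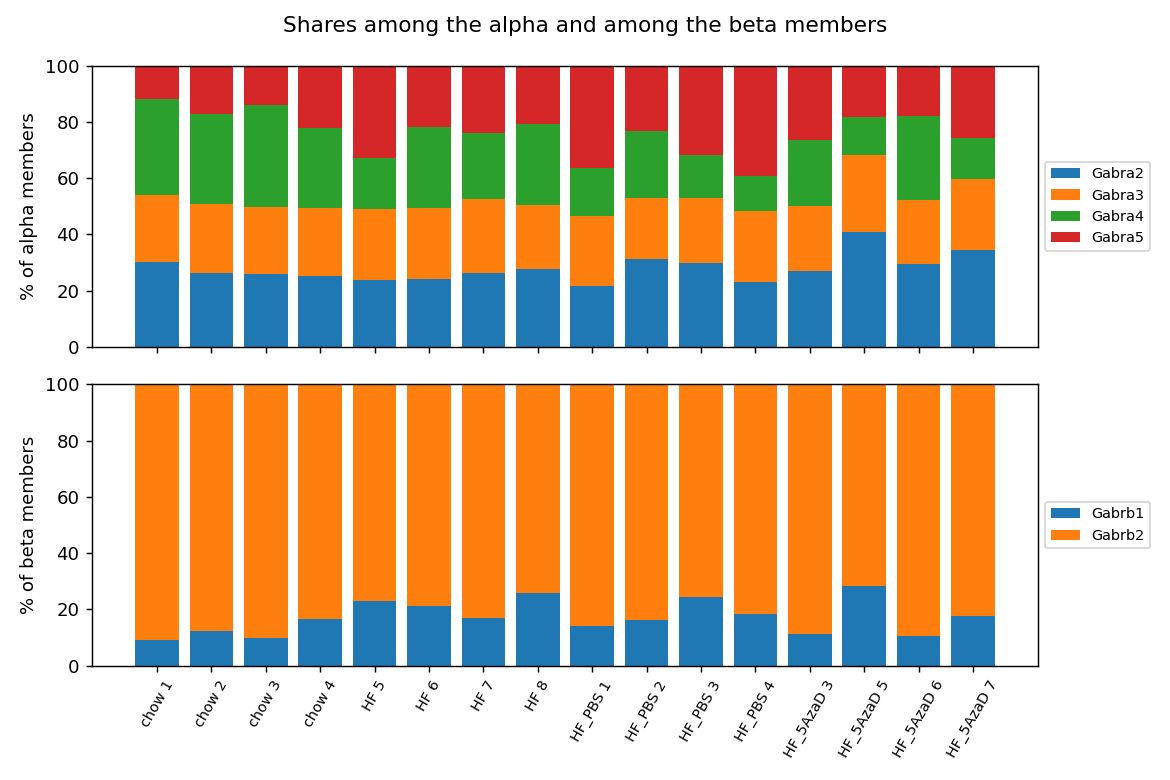
Share of each alpha member in the summed FPKM of the 4 alpha members (top) and of each beta member in that of the 2 beta members (bottom), in percent, one bar per library. Gabra4 takes 28.3% to 36.4% in chow and 12.5% to 23.8% in HF_PBS, and Gabra2 takes 40.8% in HF_5AzaD 5.

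Deviations of the members from their group means were compared over the 16 libraries to see which varied together within groups. Of 21 pairs, 3 passed after Benjamini-Hochberg adjustment over the pairs, in two-sided permutation tests with 100000 shuffles within groups. Gabra2 and Gabra3 had r = 0.86 (adjusted permutation p = 0.0351) and rho = 0.82 (adjusted 0.0354). Their r was 0.73 without the 2 libraries in which the first-named member, Gabra2, lay farthest from the median of its deviations. The values without 2 libraries below also follow the first-named member only. Gabra3 and Gabrb1 had r = 0.83 (adjusted permutation p = 0.0128), rho = 0.79 (0.0164) and r = 0.68 without 2. Gabra2 and Gabrb1 had r = 0.77 (adjusted permutation p = 0.0128), rho = 0.73 (0.0354) and r = 0.71 without 2. In GRCr8 Gabra2 and Gabrb1 are both on chromosome 14 and Gabra3 is on X. Gabra4, also on chromosome 14, had r = 0.34 with Gabrb1 and 0.48 with Gabra2, and neither passed (adjusted permutation p = 0.362 for both). It was nearer to Gabrb2 on chromosome 10 (r = 0.76, adjusted permutation p = 0.0783), which in turn had r = 0.66 with Gabrd on chromosome 5 (0.0783). All members of a library share its depth and its mix of cells.

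**Figure D5:**
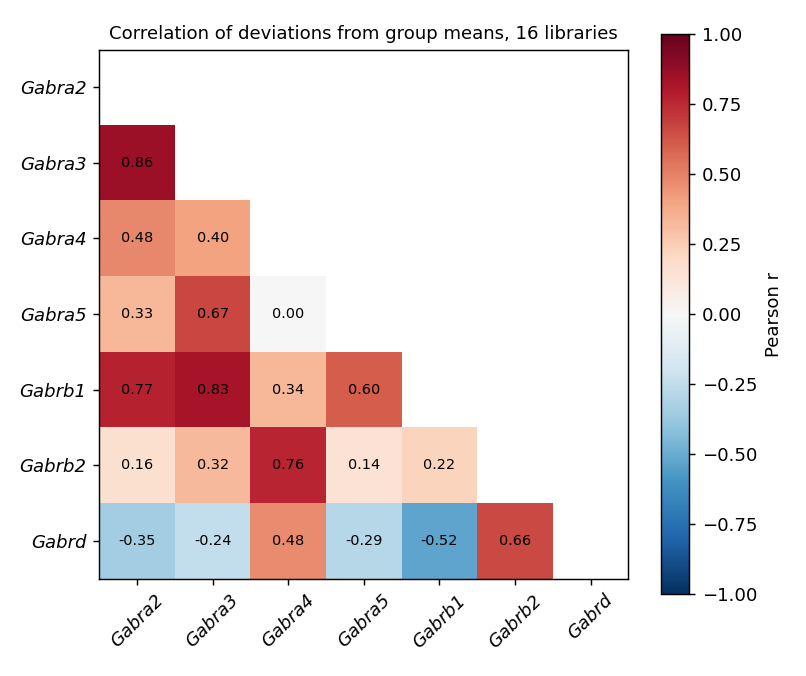
Pearson r between members, computed on deviations of log2(FPKM + 0.5) from group means over 16 libraries; red is positive and blue negative. Gabra2, Gabra3 and Gabrb1 correlate with each other at 0.77 to 0.86, while Gabrd runs from -0.52 with Gabrb1 to 0.66 with Gabrb2.

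The genes whose log2 values over the 16 libraries were most like each member were the following, among 10485 other tested loci with a symbol. For Gabra4 these were RGD621098, Ccdc132 and Rnf111 (r = 0.95 each), and for Gabrd they were Alas1 (0.96), Rbfox3 (0.96) and Jdp2 (0.95). Gabrb2 was most like Mbtps2 (0.97), Clvs2 (0.96) and March5 (0.95). The members themselves were left out of the loci compared, so only subunits outside the members could have appeared here, and none of those did. Gabra5 was most like Trpv2 (0.93), Doc2a (0.90) and Crym (0.90), and Gabrb1 was most like Lsamp (0.93), Pnma2 (0.91) and Ptprf (0.90). For Gabra2 the nearest were Acvr2a (0.94), Camk2d (0.92) and Kcnd3 (0.91), and for Gabra3 Lrrn2 (0.94), Ttc26 (0.93) and Cmtm4 (0.92). Such values are a description of libraries that share depth and tissue mix.

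Of the 5 other subunits tested, 1 rose and 2 fell in HF_PBS against chow, beside 28.2% of all loci called and 15.7% called lower. Their median log2 difference there was -0.71, beside 0.01 for all loci. The 1 that rose was Gabrg1, a gamma subunit on chromosome 14 like Gabra2, Gabra4 and Gabrb1 (18.1 to 28.4 FPKM, log2 0.58, adjusted p = 0.0465 in limma). In HF_5AzaD against HF 1 of the 5 fell, the sparse Gabrg3 (3.53 to 1.16, -1.18, 0.0189), and 0 rose, beside 14.2% of all loci called and 7.64% called lower.

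Proteins that gather GABA-A receptors at synapses were lower in both injected groups where they passed. In HF_PBS 7 of 15 tested scaffold and partner genes fell against HF and 6 of 15 against chow, and 0 rose, where 13.2% and 15.7% of all loci were called lower. In HF_5AzaD 5 of 15 fell against HF and 5 of 15 against chow, where 7.64% and 9.11% of all loci were called lower. Slitrk3, an adhesion protein of inhibitory synapses, fell from 11.8 FPKM in chow to 5.08 in HF_PBS (log2 -1.18, adjusted p = 0.00449). Lhfpl4, a membrane protein that gathers receptors at inhibitory synapses, fell from 45.1 in chow to 27.1 in HF_PBS (-0.73, 0.00259) and to 32.7 in HF_5AzaD (-0.46, 0.0191). Magi2 fell from 30.5 to 15.0 (-1.01, 0.00905) and to 15.7 (-0.995, 0.0189), and Nlgn3 fell from 36.1 to 21.6 in HF_PBS (-0.74, 0.0121). The list median was -0.28 in HF_PBS against chow, beside 0.01 for all loci.

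Of 16 trafficking factors, 2 rose and 6 fell in HF_PBS against chow, where 28.2% of all loci were called and 15.7% were called lower. Kif5a, a kinesin motor that carries receptors along axons and dendrites, fell from 564 FPKM in chow to 301 in HF_PBS (-0.90, adjusted p = 0.0161) and 279 in HF_5AzaD (-1.05, 0.0164). Akap5, an anchor for kinases at synapses, fell from 27.0 to 11.6 in HF_PBS (-1.31, 0.0124), and Arfgef2 from 9.24 to 5.35 (-0.74, 0.00512). Plcl1 fell in HF_5AzaD against HF (15.7 to 9.58, -0.71, 0.0282). The genes that rose in HF_PBS against chow, named after their values were seen, were Gabarap, which binds receptors on their way to the membrane (107 to 164, 0.61, 0.00814), and its relative Gabarapl2 (25.4 to 33.8, 0.41, 0.0367).

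Genes of GABA supply gave 0 higher and 1 of 9 lower in HF_PBS against chow, where 15.7% of all loci were called lower, so the list did not exceed the background there. In HF_5AzaD against chow 3 of 9 were lower and 0 higher, beside 9.11% of all loci called lower. Slc38a1, an amino acid transporter that supplies glutamine to neurons, fell from 51.0 FPKM in chow to 30.7 in HF_PBS (-0.74, adjusted p = 0.00474) and 29.0 in HF_5AzaD (-0.82, 0.00858). Abat, the enzyme that breaks down GABA, fell from 57.1 to 31.1 in HF_5AzaD (-0.90, 0.0432), as did Aldh5a1 of the next step (29.8 to 22.1, -0.43, 0.0279). Slc6a13, a GABA transporter of meninges and vessels, rose in HF_5AzaD against HF (2.46 to 7.90, 1.42, 0.0260).

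Chloride transporters set the gradient that GABA-A receptors use. Slc12a5, the neuronal chloride exporter KCC2, fell from 173 FPKM in chow and 146 in HF to 107 in HF_PBS (-0.70, adjusted p = 0.00449, and -0.45, 0.0300). The GABA-B receptor is a G protein-coupled receptor. Of 6 tested genes of this receptor and its partners, 4 partner genes fell and 1 gene rose in HF_PBS against chow, beside 28.2% of all loci called and 15.7% called lower. The potassium channel genes Kcnj9 (59.7 to 16.9, -2.02, 0.00560), Kcnj3 (55.9 to 21.5, -1.58, 0.00909) and Kcnj6 (20.4 to 10.4, -1.03, 0.0176) fell, as did Kctd16 (7.40 to 2.95, -1.27, 0.00898). Gabbr1, a subunit of the receptor itself, rose from 231 to 293 (0.34, 0.0190) and is named after its value was seen. No gene of these 6 lists passed the limma test for the diet alone or for the inhibitor against its vehicle. In both comparisons 0 of all 14824 loci tested passed, so this is no trait of the lists. HF_PBS 3 and 4 also stood apart by their myelin sums, and HF_PBS 3 by its excitatory neuron sum, as given above. Without HF 8, HF_PBS 3 and HF_PBS 4 together, few loci of any kind were called in HF_PBS against chow or HF, as counted above. Most HF_PBS calls of these lists were therefore lost in that fit, which held fewer HF_PBS libraries. The part of myelin or neuronal content in these differences was not tested.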

How the data were processed

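Poly-A RNA of 16 frontal cortex libraries was sequenced. Values are FPKM per merged locus as deposited by the authors, each with a status. Cufflinks, Cuffdiff, Bowtie, Bowtie2, TopHat, TopHat2 and the build rn5 were used per the submitters' processing notes, which give no versions or roles. Strand, annotation and scaling are not given in the sources used here. Reads of antisense or overlapping transcripts may be part of a value.

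The 161 loci whose estimate was not marked OK throughout were left out, and those with a mean of at least 1 FPKM were tested. Group means were fitted with limma 3.58.1 (R 4.3.3, variance prior with trend) to log2(FPKM + 0.5) of all 16 libraries, for 6 contrasts, leaving 12 residual degrees of freedom. Benjamini-Hochberg adjustment ran over 14824 loci, and an adjusted p under 0.05 was a call. Fold changes on this scale understate those of low genes. The fit was tested on simulated data. Where several loci share a symbol, the highest mean decides. Python 3.11.15 was used for the rest.

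All members are named, as are tested subunits of the comparison list; other lists give up to 4 called genes with the largest difference in any comparison, and likeness the 3 highest correlations per member. Some genes of these lists are not reported here. Members and lists were chosen with earlier results of these data known. Replicate numbers gave no sign of pairing. Alternatives were pseudocounts of 0.1 and 1, no filter, a mean of at least 5 FPKM, median scaling, quantile normalization, 2 groups only, each library left out, 3 libraries left out together, and a replicate block. Columns of samples outside the series numbered 0. Per-library read counts were not used here.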

Additional observations from a re-analysis of the deposited data

Results flagged for a closer look

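Gabrb2 in HF 6 was at 60.3 FPKM, far above the other HF libraries, which lay between 31.1 and 36.0. It is 1 of 28 member and group combinations examined for a library far from the other 3, and chance flags about 1 in 20. Without HF 6, the log2 difference of HF from chow was -0.59 in place of -0.37.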

How the results depend on the processing

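Of the calls, Gabra4 in HF_PBS against chow was kept in 16 of 17 alternatives, Gabrd in 10 of 17, and Gabra4 in HF_PBS against HF in 9 of 16. The cause of each change below was not tested. With HF 8, HF_PBS 3 and HF_PBS 4 left out together, no member was called in HF_PBS against HF (0; 7 loci) or against chow (0; 3 loci), and 1 was called in HF_5AzaD against chow. The log2 differences that then changed sign were -0.0099 for Gabra2 in HF against chow; -0.0083, -0.14, -0.10, -0.20 and -0.033 for Gabra3, Gabra4, Gabrb1, Gabrb2 and Gabrd in HF_5AzaD against HF_PBS; 0.013, 0.11, 0.090 and 0.072 for Gabra2, Gabra5, Gabrb2 and Gabrd in HF_PBS against HF; and 0.0034 for Gabra2 in HF_PBS against chow. With only the 2 groups compared, members called were 0 in HF_PBS against HF and 1 in HF_5AzaD against chow, and loci called were 1433 in HF_PBS against HF and 27 in HF_5AzaD against HF. With no filter, 0 members were called in HF_PBS against HF. Median scaling gave 0.030 for Gabra5 in HF_PBS against HF, 0.013 for Gabra3 in HF_5AzaD against chow and 0.013 for Gabrb2 in HF_5AzaD against HF, and quantile normalization 0.014 for Gabra3 in HF_5AzaD against chow.

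Replicate numbers gave no sign of pairing: correlations of deviations were -0.164 to 0.0236 between chow and HF_PBS and -0.107 to 0.0641 between HF and HF_5AzaD, and no library correlated best with its own number (0 of 4 and 0 of 3). With the replicate block, HF_PBS against chow called 1 member (Gabra4; Gabrd had an adjusted p of 0.0509) and 2331 loci, HF_5AzaD against HF called 0 loci, and Gabrd there was at -0.12.

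Leaving out 1 library at a time, members called ranged from 0 to 1 in HF_PBS against HF and from 1 to 3 in HF_PBS against chow. Loci called ranged from 1633 to 4036 and from 2013 to 4629 in those comparisons, from 399 to 2906 in HF_5AzaD against chow, from 395 to 2306 in HF_5AzaD against HF, and from 0 to 1 in HF_5AzaD against HF_PBS. Ranges that crossed 0 were -0.0099 to 0.18 for Gabra2 in HF against chow; -0.11 to 0.34 for Gabra2, -0.15 to 0.20 for Gabrb2, -0.13 to 0.37 for Gabrd in HF_5AzaD against HF; -0.060 to 0.40 for Gabra2, -0.26 to 0.13 for Gabra3, -0.14 to 0.30 for Gabrb1 in HF_5AzaD against chow; -0.17 to 0.17 for Gabra5 in HF_PBS against HF; -0.24 to 0.21 for Gabrb1 in HF_5AzaD against HF_PBS. No value with a changed sign passed the test.

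Absolute depth is unknown, and HF libraries were the shallowest relative to chow 2.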

Other observations

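Of the 12 other subunits, 7 did not reach a mean of 1 FPKM: Gabra6, Gabre, Gabrp, Gabrq, Gabrr1, Gabrr2 and Gabrr3. Gabre and Gabrq, both on the X chromosome in GRCr8, which encode the epsilon and theta subunits, were at 4.09 and 4.45 FPKM in HF_PBS 3. Elsewhere Gabre reached at most 0.451 (HF_5AzaD 5) and Gabrq at most 0.809 (HF 5). HF_PBS 3 also had the highest thalamus marker sum, 109 FPKM over 11 markers, against 41.3 to 97.6 in the other libraries. Calb2, also listed as an interneuron marker, had a mean of 22.5 FPKM in HF_PBS and 6.04 in chow. Of the 9 markers tested, 6 had log2 differences above 0 in HF_PBS against chow, with 1 called higher and 1 lower. Gbx2 was at 0 in at least 1 HF_PBS library. The part of these markers in the Gabre and Gabrq values was not tested. Gabra6, known from cerebellar granule cells, was at 0 to 0.463 FPKM.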
